A study of Mus musculus with 6 samples.

Results

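The microRNAs (miRNAs) described here were the mouse miRNAs with a registry number of 1000 or higher, the late entries of the catalogue of known miRNAs. They were chosen by name alone: every listed mature miRNA named miR-N with N of at least 1000 was taken, except miR-1193, miR-1197 and miR-3107 and their arms, and this gave 194 of the 778 listed miRNAs. Of the 194, 110 had at least 10 reads summed over the 6 libraries, and the other 84 had fewer. The samples were primary mesangial cells of the mouse, the contractile cells that hold the capillary loops of the kidney filter together. All cultures were kept in 25.5 mM glucose with 20% fetal bovine serum and used between passages 3 and 6. The Control group (n = 3) was compared with cells that received TGF-β1, a cytokine that drives kidney fibrosis, at 10 ng/ml over 72 h (n = 3). The comparison asks which miRNAs of the mesangial cell change in level under TGF-β1.

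miRNAs are cut from hairpin precursors, and either arm of the hairpin (5p or 3p) can be loaded into Argonaute, where the seed, bases 2 to 8, pairs with target mRNAs. Numbers are given in order of registration, so abundant and conserved miRNAs tend to have low numbers, and most of the higher ones were found by deep sequencing of small RNA. Some of these late entries do not pass through the usual processing: mirtrons are short introns that become the hairpin after splicing, and others are cut from small nucleolar RNAs (snoRNAs) or match repeat elements.

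The mature sequences below belong to the miRNAs on which the results turn. They were taken from RefSeq (the GRCm38.p6 table), which held a sequence for 148 of the 194 miRNAs and for 85 of the 110 with at least 10 reads, and the capitals mark the seed. The first lines hold the most abundant miRNAs that had a sequence there, with those called lower after TGF-β1. The miRNAs from miR-1224-5p onwards had few reads and are shown because their groups stood apart.
miR-1839-5p: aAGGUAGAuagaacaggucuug
miR-1981-5p: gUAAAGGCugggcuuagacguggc
miR-1983: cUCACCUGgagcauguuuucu
miR-3099-3p: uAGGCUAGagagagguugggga
miR-3473b: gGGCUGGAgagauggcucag
miR-3095-3p: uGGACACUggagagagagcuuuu
miR-3102-3p: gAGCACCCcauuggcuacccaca
miR-3102-5p.2-5p: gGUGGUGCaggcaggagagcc
miR-1964-3p: cCGACUUCugggcuccggcuuu
miR-1306-3p: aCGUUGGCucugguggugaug
miR-1198-5p: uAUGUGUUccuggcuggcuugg
miR-1224-5p: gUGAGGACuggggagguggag
miR-1247-5p: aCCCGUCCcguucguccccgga
miR-1247-3p: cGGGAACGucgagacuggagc
miR-5114: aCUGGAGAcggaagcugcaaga
miR-3072-3p: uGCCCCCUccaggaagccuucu

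No seed was shared among these miRNAs. Over the 148 late-numbered miRNAs with a sequence, 145 (98.0%) had a seed found in no other listed miRNA with a sequence, against 67.4% of the 433 other miRNAs with a sequence. The 3 exceptions were miR-1983, which had the seed of miR-412-3p (UCACCUG), miR-1943-5p, which had that of miR-149-3p (AGGGAGG), and miR-3473d, which had that of miR-674-5p (CACUGAG). The late-numbered miRNAs were also richer in G and C, with a median of 54.5% of bases against 47.6% in the others. These are descriptions of the listed names, with no test.

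The deposited values are reads per 1000000 reads of the library total (RPM), and each value was a whole number of reads within a tolerance of 0.002, so reads could be recovered. The library totals ran from 16478281 to 20169254 reads, and 1 read was worth 0.0496 to 0.0607 RPM. The listed miRNAs held 79.6% ± 0.142 (SD, n = 3) of the total in Control and 72.3% ± 0.752 after TGF-β1. Of the miRNAs known to mark cell types, 4 of 4 mesenchymal and contractile ones were listed, with a summed level of 2575 to 2946 RPM in Control and 2603 to 3066 RPM after TGF-β1. The epithelial miR-200 group (5 of 5 listed) summed to 22.2 to 25.4 RPM in Control and 1.67 to 2.53 RPM after TGF-β1. In that group miR-200c-3p was near 0 in both groups, with 0, 0.0599 and 0 RPM in Control and 0, 0.112 and 0 RPM after TGF-β1. So was miR-141-3p, with 0.0607, 0 and 0 RPM in Control and 0 in all TGF-β1 libraries. Blood miRNAs (3 of 6 listed) stayed at or below 0.600 RPM, endothelial ones (2 of 2) at or below 0.298 RPM and neuronal ones (2 of 2) at or below 2.40 RPM. The liver miRNA miR-122-5p was at 24.2 to 27.3 RPM in Control and 13.1 to 13.9 RPM after TGF-β1. Of the muscle list (3 of 4 listed), miR-206-3p stood at 3275 to 3634 RPM, miR-1a-3p at 9.17 to 11.6 RPM and miR-133a-3p at no more than 0.182 RPM.

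Late-numbered miRNAs were seldom abundant. A mean of at least 10 RPM was reached by 7 of the 194 (3.61%), against 172 of the 584 others (29.5%), and the median of the mean RPM was 0.146 against 1.23. At least 10 reads over the 6 libraries were found for 56.7% against 78.9% of the others, and at least 10 reads in every library for 50 late-numbered miRNAs (25.8%) against 51.5% of the others. Only 94 of the 194 had a read in every library, and 29 had a single read in the whole experiment. The plot of the share of miRNAs at or above each level shows the gap between the sets over most of the range.

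**Figure D1:**
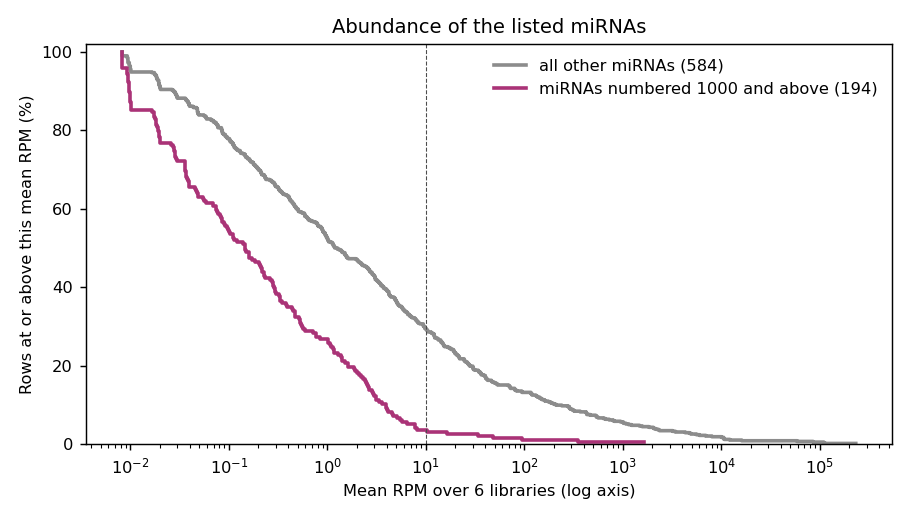
Percentage of the listed miRNAs (y axis) whose mean RPM over the 6 libraries was at or above the value on the x axis (log axis), for the 194 late-numbered miRNAs and the 584 others. At 10 RPM (dashed line) the lines stood at 3.61% and 29.5%.

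The numbers within the set were not alike in this respect. Of the 46 miRNAs numbered 1900 to 1983, 35 had at least 10 reads, of the 75 numbered 3000 to 3474, 40 did, and of the 26 numbered 5000 to 5136, 15 did. In the 18 numbered from 5200 up to 5710 this fell to 2, and the median of their mean RPM was 0.0191. The 10 numbered from 1300 up to 1895 had the highest median, 2.68 RPM, and held 71.1% of the RPM of the set.

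In each library 129, 138 and 135 late-numbered miRNAs had at least 1 read in Control, and 146, 134 and 132 after TGF-β1. The groups overlapped, and with every library thinned to 16478281 reads the means were 133.3 and 134.2. At least 10 reads were found for 63, 63 and 60 miRNAs in Control and for 62, 57 and 55 after TGF-β1. With reads in the Control libraries alone there were 21 of the 194 miRNAs, the deepest with 48 reads. With reads in the TGF-β1 libraries alone there were 24, the deepest with 16 reads. Over all 778 listed miRNAs these counts were 53 and 51, and over the 584 others 32 and 27. The 29 late-numbered miRNAs with a single read are in 1 group alone by necessity.

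A single miRNA carried most of the signal. miR-1839-5p held 70.0% of the mean RPM of the 194 miRNAs, the first 3 held 88.8%, the first 10 held 94.4%, and the remaining miRNAs shared what was left. Together the 194 took 0.247%, 0.240% and 0.219% of the library total in Control and 0.236%, 0.239% and 0.244% after TGF-β1. The ranges overlapped, and the means were 0.235% ± 0.0144 (SD, n = 3) and 0.240% ± 0.00414. As a share of the reads in the listed miRNAs alone, the ranges of 0.275% to 0.309% in Control and 0.327% to 0.339% after TGF-β1 did not overlap. Without miR-1839-5p the share of the library total was 0.0761% in Control and 0.0664% after TGF-β1.

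miR-1839-5p was the 27th most abundant of all listed miRNAs, with 1658, 1592 and 1520 RPM in Control and 1673, 1733 and 1799 RPM after TGF-β1. All 3 TGF-β1 libraries were above the Control libraries, by a small margin. The log2 change was 0.13 ± 0.07 (SE), with a limma adjusted p of 0.154. The opposite arm, miR-1839-3p, lay at 2.25, 2.58 and 1.02 RPM in Control and 1.64, 1.34 and 4.51 RPM after TGF-β1, with overlapping groups. The log2 ratio of 3p to 5p was -9.12 in Control and -9.07 after TGF-β1, so nearly all reads of this hairpin were of the 5p arm in both groups. The sequence had 1 exact match in the NCBIM37 genome, at chr7:88674805-88674826 (+ strand). GENCODE vM1 has a snoRNA there, AC167122.1, inside an intron of the long non-coding RNA 2900076A07Rik.

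miR-1981-5p was second, with 382, 391 and 369 RPM in Control and 321, 333 and 315 RPM after TGF-β1. Every TGF-β1 library was below every Control library, with a log2 change of -0.24 ± 0.08 (limma adjusted p = 0.0366). The limma adjusted p was 0.0594 to 0.0899 with any library left out and 0.343 to 0.880 under the other scalings, where the change shrank to as little as -0.02. The opposite arm had 0.167 to 0.485 RPM. This miRNA lay at chr1:186646344-186646367 (- strand), and its first base was the first base of an intron of 82 bases in Mosc2, the placement of a mirtron. miR-1983 matched at chr13:21988799-21988819 (- strand), where GENCODE vM1 holds no other gene. It had 149, 127 and 57.3 RPM in Control and 76.0, 82.2 and 73.7 RPM after TGF-β1. Control replicate 3 lay below the TGF-β1 libraries and the other Control libraries above them, and the log2 change was -0.41 ± 0.32 (limma adjusted p = 0.319). Without that library it was -0.83 (limma adjusted p = 0.00181).

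For the comparison as a whole, 60 of the 194 passed a filter on low reads that was run over all 778 miRNAs, and 134 did not, among them 50 of the 110 with at least 10 reads. Of the 60, 50 reached the level of the filter (0.576 RPM) in all libraries, 6 in all Control libraries but not all TGF-β1 libraries, 2 in all TGF-β1 but not all Control libraries, and 2 in a mixture. Members that passed through 1 group had to differ to some degree, so counts over the 60 are descriptions. A miRNA was called at a limma adjusted p under 0.05, taken over all 408 tested miRNAs, with an absolute log2 change above 1.

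After TGF-β1, 3 late-numbered miRNAs were called lower, miR-3099-3p, miR-3473b and miR-3095-3p, and 1 was called higher, miR-5109. Over all 408 tested miRNAs 7.84% were called lower and 4.41% higher, 12.3% in all, and among the 60 it was 5.0% and 1.67%, 6.67% in all. At any fold, 12 of the 60 were lower and 6 higher at an adjusted p under 0.05 (30.0%), where 31.9% of all tested miRNAs were lower and 17.4% higher (49.3%). For 25 of the 60 (41.7%) no TGF-β1 library lay within the range of Control, 8 with all of them higher and 17 with all of them lower, against 56.9% of all tested miRNAs, 20.8% higher and 36.0% lower. The median log2 change of the 60 was -0.12, with an interquartile range of -0.37 to 0.11, and that of all 408 was -0.17. Scaling by median of ratios moved the median of all tested miRNAs to -0.02, so small changes depend on the scaling. In bulk RNA of this kind, fewer cells of a type and less RNA per cell cannot be told apart. Nothing in the labels says that the 3 libraries of a group were separate cultures, so the p-values measure only the spread between these libraries.

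**Figure D2:**
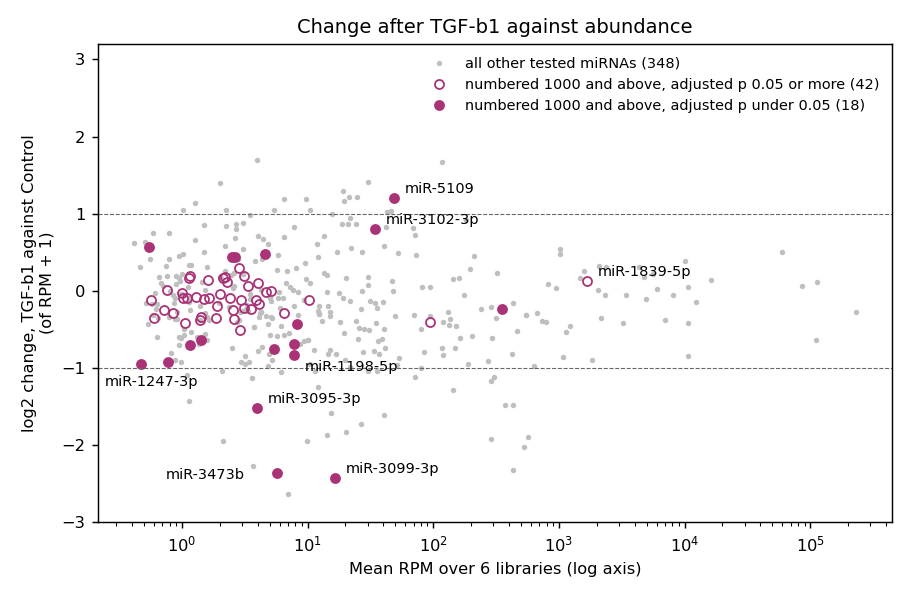
Log2 change of RPM + 1 between TGF-β1 and Control (y axis) against mean RPM over 6 libraries (x axis, log axis) for the 408 tested miRNAs, with the 60 late-numbered ones ringed or filled by limma adjusted p. The dashed lines mark a log2 change of 1 in each direction. miR-3099-3p, miR-3473b and miR-3095-3p lay below the lower line and miR-5109 above the upper one.

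miR-3099-3p, the most abundant of those called lower, is described first. It had 28.6, 30.5 and 26.3 RPM in Control and 5.11, 3.85 and 4.51 RPM after TGF-β1, from 463 to 509 reads and 69 to 103 reads per library. The groups were far apart, and the ratio of the means was 0.158. The log2 change was -2.43 ± 0.14, with a limma adjusted p of 2.51e-05. The 3p arm was almost the only product of the hairpin, since miR-3099-5p had 2 reads in all. The match was at chr7:6756349-6756370 (+ strand), inside a hairpin annotated as AC149277.1 with no other gene annotated around it.

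miR-3473b had 13.7, 12.3 and 5.22 RPM in Control and 1.74, 0.893 and 0.702 RPM after TGF-β1. Control replicate 3 was again the lowest of its group but stayed above all TGF-β1 libraries. The log2 change was -2.37 ± 0.34 (limma adjusted p = 0.00112), and without that library -2.76. The origin of these reads cannot be placed: the 20 bases of miR-3473b matched the NCBIM37 genome exactly at 24805 positions, and they are letters of the B2 short interspersed repeat. The other such miRNA with at least 10 reads was miR-3470b, whose letters belong to the B1 repeat, with 42725 exact matches. It had 2.06, 1.32 and 1.76 RPM in Control and 1.04, 1.0 and 1.17 RPM after TGF-β1. Its log2 change was -0.38 ± 0.14, with a limma adjusted p of 0.0541, which missed the threshold.

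miR-3095-3p had 6.07, 7.73 and 5.33 RPM in Control and 1.24, 1.45 and 1.99 RPM after TGF-β1. All Control libraries were above all TGF-β1 libraries, and the log2 change was -1.52 ± 0.18 (limma adjusted p = 0.000475). miR-3095-5p had 1 read in the experiment. The 3p arm matched at chr4:58453895-58453917 (- strand), within a long intron of Lpar1, the gene of a lysophosphatidic acid receptor, and on its strand. All 3 called lower kept their call when any library was left out in turn, with limma adjusted p values of at most 0.00915. The epithelial miR-200 group given above fell in the same libraries, and its part in these values was not tested.

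miR-5109 had 28.5, 27.8 and 28.9 RPM in Control and 91.3, 60.1 and 53.7 RPM after TGF-β1. RefSeq held no sequence under this name, so its seed and its place in the genome are not known here. The Control libraries were close together, and the TGF-β1 libraries were all higher, replicate 1 by the most. The log2 change was 1.20 ± 0.19 (limma adjusted p = 0.00181). Without TGF-β1 replicate 1 it was 0.98, short of the fold threshold, so the call was lost (limma adjusted p = 0.000828).

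**Figure D3:**
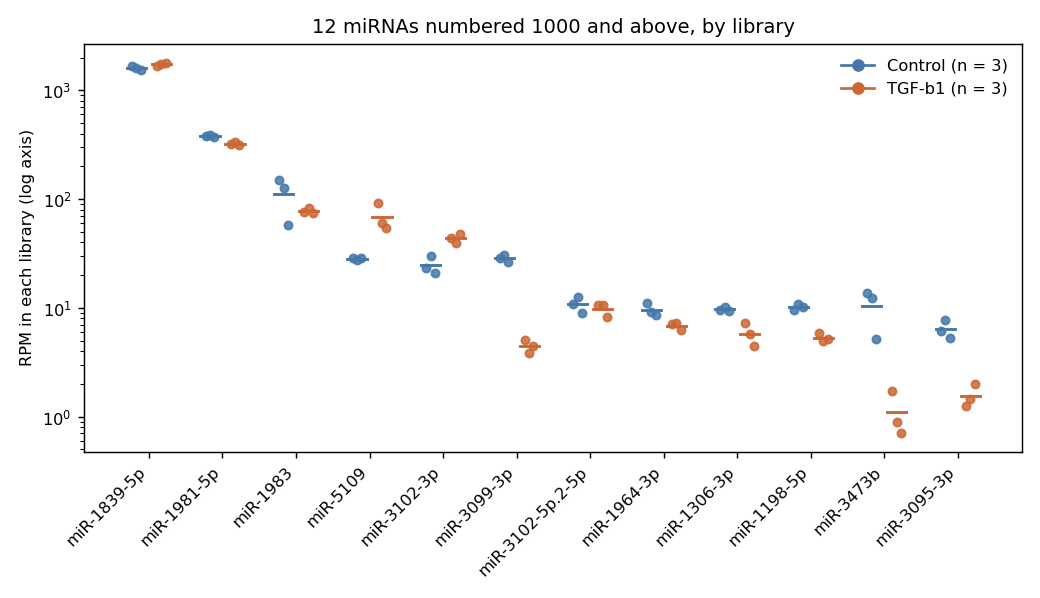
RPM in each library (y axis, log axis) of 12 late-numbered miRNAs, the 10 most abundant with miR-3473b and miR-3095-3p. Each dot is 1 library (3 Control and 3 TGF-β1) and each bar the mean of its group. The groups of miR-3099-3p, miR-3473b, miR-3095-3p and miR-5109 stood furthest apart, and those of miR-1983 and miR-3102-5p.2-5p overlapped.

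The arms of the hairpin of miR-3102 went separate ways. miR-3102-3p had 23.5, 30.0 and 21.1 RPM in Control and 43.7, 39.1 and 48.0 RPM after TGF-β1, with no overlap. The log2 change was 0.80 ± 0.16 (limma adjusted p = 0.00502), and it reached 1.01 under scaling by median of ratios. miR-3102-5p.2-5p had 10.8, 12.5 and 9.02 RPM in Control and 10.7, 10.7 and 8.25 RPM after TGF-β1. Its groups overlapped, and the log2 change was -0.11 ± 0.17 (limma adjusted p = 0.615). The log2 ratio of the 3p to the 5p arm was 1.13 in Control and 2.04 after TGF-β1. The difference of 0.91 ± 0.22 had a limma adjusted p of 0.0304 over the 104 hairpins with both arms tested, of which 20.2% passed. The other hairpins were paired by the like names of their arms. The miR-3102 pair, whose names are not alike, was added by hand after its values were seen. The hairpin fills an intron of 104 bases in Arhgef17. miR-3102-3p (chr7:108030821-108030843, - strand) ended 1 base before the intron did. miR-3102-5p.2-5p began 22 bases into the intron, behind miR-3102-5p, which began with its first base, so the abundant products of the arms are not the pair named alike. miR-3102-5p and miR-3102-3p.2-3p had at most 0.121 and 0.0607 RPM.

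miR-1306 lies in an exon of Dgcr8, the gene of the Drosha partner that is itself needed to make miRNAs, and showed the opposite picture. miR-1306-3p (chr16:18284341-18284361, - strand) had 9.65, 10.3 and 9.36 RPM in Control and 7.19, 5.69 and 4.45 RPM after TGF-β1. The groups did not overlap, with a log2 change of -0.69 ± 0.17 (limma adjusted p = 0.0123). miR-1306-5p had 5.40, 6.59 and 3.63 RPM in Control and 5.01, 4.19 and 6.09 RPM after TGF-β1, which overlapped. Its log2 change was -0.01 ± 0.21 (limma adjusted p = 0.975). The ratio of its arms changed by -0.68 ± 0.29 on the log2 scale, which missed the threshold over the hairpins (limma adjusted p = 0.115).

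**Figure D4:**
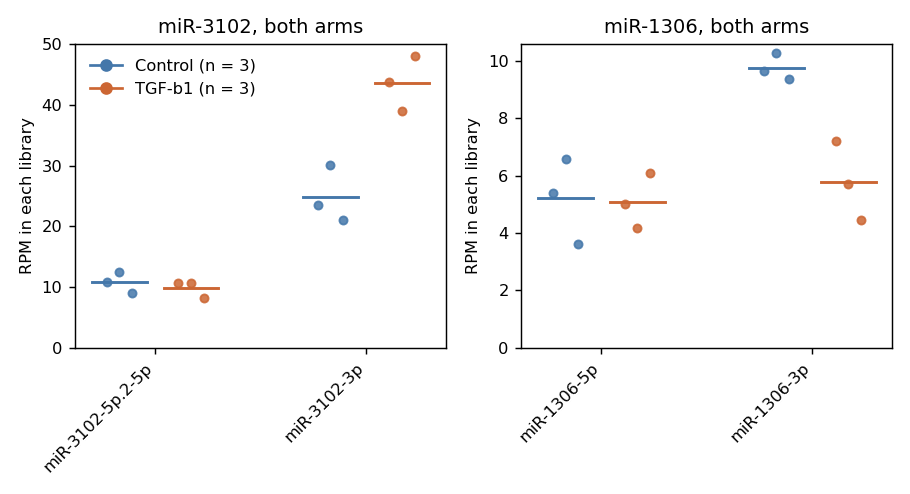
RPM in each library (y axis, from 0) of the arms of the hairpins of miR-3102 and miR-1306, with 3 Control and 3 TGF-β1 libraries as dots and the group means as bars. The 3p arm of miR-3102 was higher after TGF-β1 and that of miR-1306 lower, and the groups of their 5p arms overlapped.

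The other abundant members were not called. miR-1964-3p, from an intron of the zinc finger gene Zfp84, had 11.0, 9.11 and 8.62 RPM in Control and 7.09, 7.20 and 6.26 RPM after TGF-β1. The groups did not overlap, and the log2 change was -0.43 ± 0.14 (limma adjusted p = 0.0391). This pass was lost with any library left out (limma adjusted p of 0.0521 to 0.139) and under each other scaling (0.125 to 0.254). miR-1964-5p had 18 reads in all. miR-1198-5p, which matched the genome at 2 positions, had 9.59, 10.9 and 10.2 RPM in Control and 5.85, 4.91 and 5.15 RPM after TGF-β1. The levels in Control lay close together and well above the others, and the log2 change was -0.83 ± 0.13 (limma adjusted p = 0.00173). The opposite arm had at most 0.0992 RPM.

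Of the next 10 by mean RPM, miR-3473b and miR-3095-3p are given above. miR-1934-3p (chr11:69476594-69476615, + strand, with no other gene annotated there) went from a mean of 7.04 to 3.81 RPM. Its log2 change was -0.75 ± 0.16 (limma adjusted p = 0.00557). miR-5097 went from a mean of 3.68 to 5.49 RPM, with a log2 change of 0.47 ± 0.16 (limma adjusted p = 0.0373), and with a library left out the adjusted p rose to as much as 0.129. The other 6, miR-1306-5p, miR-1943-5p, miR-1843b-3p, miR-3096b-5p, miR-5100 and miR-1969, had overlapping groups, with log2 changes of -0.29 to 0.10. The near-copies miR-1843 and miR-1843b, and miR-3096 and miR-3096b, can share reads, and how those were divided is not stated.

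By where they lie, the 85 miRNAs with at least 10 reads and a sequence fell into few kinds. A single exact match was found for 76. By the genes of GENCODE vM1, 43 of them lay in an intron and in no exon, and 19 in an exon, on the same strand. A snoRNA counted here as an exon, also where it lies in an intron of another gene. Within an annotated intron on the same strand, with or without such an exon, lay 53. Another 10 had no other gene there and 4 lay opposite a gene. Inside an annotated snoRNA lay 6: miR-1839-5p, miR-1843b-3p (in Scarna3a), miR-3068-5p and miR-3068-3p (in SNORA58), miR-5121 (in Snord33) and miR-3069-3p (in Scarna13). These held 70.5% of the reads of the set, nearly all in miR-1839-5p. Of the 4 that were tested, miR-3068-5p was higher after TGF-β1 at an adjusted p under 0.05 and none was lower, beside 17.4% higher and 31.9% lower among all tested miRNAs. miR-3068-5p had 2.12, 1.74 and 2.04 RPM in Control and 3.07, 3.13 and 2.87 RPM after TGF-β1, with no overlap and a log2 change of 0.44 ± 0.13 (limma adjusted p = 0.0208, and up to 0.0630 with a library left out). miR-3068-3p, the other arm, had 1.36 to 2.67 RPM in Control and 1.12 to 2.17 RPM after TGF-β1, which overlapped.

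Within 2 bases of an end of an intron lay 5, and they held 16.3% of the reads of the set. They were miR-1981-5p, its other arm miR-1981-3p, miR-3102-3p, miR-1224-5p, which starts with the first base of an intron of 85 bases in Vwa5b2, and miR-3076-3p, which ends with the last base of an intron of 962 bases in Tkt. Of the 3 that were tested, miR-3102-3p was higher and miR-1981-5p and miR-1224-5p lower at a limma adjusted p under 0.05, beside the same 17.4% and 31.9% among all tested, and the value of miR-1981-5p depends on the scaling as given above. Introns shorter than 150 bases held 10 of the 85, among them miR-3057-5p in Apba3, with 1.80 to 2.37 RPM in Control and 2.73 to 3.63 RPM after TGF-β1. Its log2 change was 0.44 ± 0.14 (limma adjusted p = 0.0362, and up to 0.106 with a library left out).

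Some miRNAs with few reads had groups that stood apart, and these were picked out after their values were seen. Both arms of miR-1247, miR-3089-3p and miR-5114 reached the level of the filter in all libraries only of the group in which they were higher, so their values are a description and no p is given for them. miR-1247-5p had 21, 30 and 16 reads in Control and 9, 2 and 2 after TGF-β1, a mean of 1.33 RPM ± 0.448 (SD, n = 3) against 0.225 RPM ± 0.192. miR-1247-3p had 12, 20 and 16 reads in Control and none in the TGF-β1 libraries. Against a floor of 3 reads over the group it was at least 17.4-fold lower. For both arms all TGF-β1 libraries lay below all Control libraries. The hairpin lies at chr12:111516258-111516339 (- strand), where the 3p arm overlaps an exon of Dio3os, the RNA antisense to the thyroid hormone deiodinase gene Dio3, at the end of the imprinted Dlk1 to Dio3 region.

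Members from inside that region had fewer reads still. miR-3072-3p (chr12:110986138-110986159, + strand, in an intron of Mirg) had no reads in Control and 10, 2 and 4 reads after TGF-β1, at least 4.91-fold higher against the same floor. It did not pass the filter and is not in the main test. edgeR over all miRNAs with at least 10 reads, chosen after seeing the data, called it higher, with no Control reads to set it against. That call is among the counts given below. miR-1188-5p, in an intron of Rian, had 6, 7 and 6 reads in Control and 9, 1 and 5 reads after TGF-β1, which overlapped. Whether these differed from miR-1247 was not tested.

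miR-1224-5p (chr16:20604525-20604545, + strand) had 28, 32 and 25 reads in Control and 12, 13 and 10 after TGF-β1. The groups were well apart, with a log2 change of -0.71 ± 0.13 (limma adjusted p = 0.00278). miR-5114, at chr19:44377661-44377682 (+ strand) in an exon of the fatty acid desaturase gene Scd2, had 2, 4 and 7 reads in Control and 19, 14 and 14 after TGF-β1. The means were 0.253 RPM ± 0.138 (SD, n = 3) and 0.848 RPM ± 0.0839. miR-3089-3p, with 41, 27 and 30 reads in Control and 29, 16 and 7 after TGF-β1, had overlapping reads but no overlap in RPM. edgeR on the recovered reads of the 408 miRNAs, with library totals, also called miR-1247-5p, miR-1247-3p and miR-1224-5p lower and miR-5114 higher. This gave 6 late-numbered miRNAs lower and 2 higher, where 13.2% of all tested were lower and 7.84% higher. Since miR-5114 and both arms of miR-1247 passed the filter through 1 group, their calls by edgeR or DESeq2 are a description. DESeq2 called 5 of the 60 lower and 3 higher, where it called 7.6% and 11.3% of all tested miRNAs. With TMM factors in edgeR the counts were again 6 and 2, where 10.0% and 11.0% of all were called. Over all 571 miRNAs with at least 10 reads, edgeR on library totals called 7 late-numbered ones lower and 3 higher, where 10.7% and 7.18% of all were called, and with TMM 7 and 5, where 7.18% and 11.4% were.

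**Figure D5:**
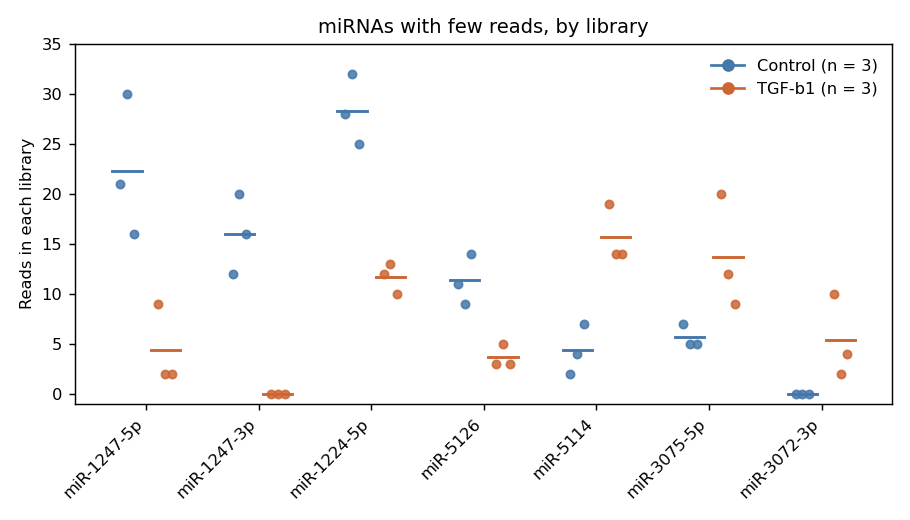
Reads in each library (y axis, from near 0) of 7 late-numbered miRNAs with few reads, with 3 Control and 3 TGF-β1 libraries as dots and group means as bars. miR-1247-3p had 0 reads in all TGF-β1 libraries and miR-3072-3p 0 in all Control libraries.

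Of the 50 miRNAs with at least 10 reads but outside the main test, 8 had every TGF-β1 library below all Control libraries in RPM. For 2, miR-3075-5p and miR-3072-3p, every TGF-β1 library lay above. Of all 163 listed miRNAs with at least 10 reads but outside the main test, 17.8% lay below and 11.7% above. miR-3075-5p had 7, 5 and 5 reads in Control and 20, 12 and 9 after TGF-β1. The deepest of the 8 was miR-5126, with 11, 9 and 14 reads in Control and 3, 5 and 3 after TGF-β1. The other 42 of the 60 tested had a limma adjusted p of 0.05 or more, with log2 changes between -0.51 (miR-1970) and 0.29 (miR-1948-3p), and none of the 84 with fewer than 10 reads passed the filter.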

How the data were processed

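Small RNA of 3 Control and 3 TGF-β1 samples was sequenced on an Illumina instrument. Per the study's methods, adaptors, reads under 18 nt and low-quality reads were removed, and the rest was compared with miRBase 17 using Bowtie, whose version is not given in the sources used here. The authors deposited the values of 778 mature miRNAs as TPM, which the authors made by dividing reads by the library total, so the values are RPM with no scaling by length. The treatment of reads with several matching miRNAs is not given in the sources used here, but no late-numbered miRNA with at least 10 reads had values identical to another row.

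Library totals were recovered as the integers for which 100% of the values are whole reads. Values were compared as log2(RPM + 1) with limma 3.58.1 in R 4.3.3 (prior with a trend, group as the sole term) over the 408 miRNAs kept by filterByExpr of edgeR 4.0.16 (minimum count 10 on recovered reads), with Benjamini-Hochberg adjustment. The fit was tested on simulated reads with log2 changes of 2 in either direction or none. Smaller changes were not simulated. Alternatives were 4 other scalings, pseudocounts of 0.1 and 10, other filters, edgeR, DESeq2 1.42.0, a replicate block, a log2 threshold of 2, and each library left out in turn. Mature sequences from RefSeq were searched exactly in the NCBIM37 genome on both strands, and GENCODE vM1 gave genes and introns. Fold bounds cover counting error only, since reads carry no molecular identifiers.

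Between replicates of a group, chi-square per degree of freedom was 38.5 to 123.9, and none was counted as 1 library. Named with values in every library were miR-3099, miR-3473b, miR-3095, the 10 most abundant, those called and their other arms, and with group means the next 10; other names were chosen after their values were seen. The members and lists were chosen with earlier results of these data known.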

Additional observations from a re-analysis of the deposited data

How the results depend on the processing

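The late-numbered miRNAs called lower (3 in the main test) numbered 5 with scaling to the sum of the listed rows, 6 with a pseudocount of 0.1, 1 with a pseudocount of 10, 6 with edgeR on TMM and 6 on library totals, 5 with DESeq2, and 7 with edgeR on all miRNAs with at least 10 reads, on library totals or TMM. Over all tested miRNAs (32 lower in the main test) these settings gave, in the same order, 28, 54, 15, 41, 54, 31, 61 and 41. Those called higher (1) numbered 2 with median-of-ratios scaling, 2 with a pseudocount of 0.1 and 0 with a pseudocount of 10. They numbered 2 with edgeR on TMM and 2 on library totals, 3 with DESeq2 and 0 at a log2 threshold of 2 in limma. With edgeR on all miRNAs with at least 10 reads they numbered 3 on library totals and 5 on TMM. Over all tested miRNAs (18 higher) these settings gave, in the same order, 31, 32, 2, 45, 32, 46, 0, 41 and 65. With a pseudocount of 10, 23 of 60 members and 224 of all 408 had an unadjusted limma p under 0.05, in either direction. At the log2 threshold of 2 these counts, also in either direction, were 24 and 228. The calls added with a pseudocount of 0.1, edgeR or DESeq2 include miR-5114 and both arms of miR-1247. These reached the level of the filter in all libraries of 1 group only, so the added counts are a description. With each library left out in turn, 3 to 4 were called lower and 0 to 1 higher. Of all tested miRNAs, 26 to 41 were then called lower and 15 to 21 higher. Without TGF-β1 replicate 1, 0 late-numbered miRNAs were called higher. There 22 of 62 members and 235 of all 422 had an unadjusted limma p under 0.05, in either direction. At any fold, the 12 lower became 7 with DESeq2 and 10 to 13 with a library left out. Over all tested miRNAs the 130 lower became 72 and 98 to 141. The 6 higher became 3 with a mean of at least 50 reads, where 27 members were tested, and 3 to 5 with a library left out. Over all tested miRNAs the 71 higher became 49 (of 281 tested) and 62 to 67.

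Replicate numbers were shared by the groups. The deviations of libraries of the same number from their group means had correlations of -0.0853, -0.206 and -0.339. Libraries of unlike number were not set beside these, so the values cannot decide whether the libraries were paired. With a replicate block, 3 higher and 10 lower passed at any fold, and 1 and 3 were called, where over all 408 miRNAs it was 61 and 115, and 18 and 32.

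The difference in the share of the library total, 0.00476 percentage points, was 0.0365 as a share of the listed rows and -0.00973 without miR-1839-5p, and ran from -0.00332 to 0.0105 with a library left out. The difference in miRNAs detected per library, 3.33, was -4 at 10 reads and 0.949 after thinning, and ran from -1 to 6 with a library left out.

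Over all scalings the limma log2 change of miR-1839-5p ran from 0.13 to 0.34 (smallest adjusted p 0.0123), of miR-1981-5p from -0.24 to -0.02 (largest 0.880) and of miR-1964-3p from -0.43 to -0.23 (largest 0.254). The pseudocount of 10 took miR-3095-3p to -0.50, miR-3473b to -0.85 and miR-5109 to 0.999, short of the fold threshold. The edgeR tests on all miRNAs with at least 10 reads were chosen after seeing the data, and so was the test of arm ratios, where with a pseudocount of 0.1 miR-3102 kept its call (0.94, limma adjusted p 0.0406) and 12.5% of hairpins passed. Depth limits the set: 134 of the 194 miRNAs had too few reads to enter the main test.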

Other observations

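The sequences of the 3 miRNAs called lower after TGF-β1 hold the run GAGAGA, read in the miRNA as written. It was found in 5 of the 148 late-numbered miRNAs with a sequence and in 0 of the 433 others. miR-3473b and miR-3095-3p shared the longer run CUGGAGAGA, and miR-3099-3p and miR-3095-3p shared AGAGAGAG. The other carriers were miR-5113, whose log2 change was -0.36 ± 0.16 (limma adjusted p = 0.101), and miR-1231-5p, which was not tested. The run was looked for after the calls were known and overlaps the end of the seed in miR-3099-3p and miR-3473b. It is a description of these letters and carries no test.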
